A study of Mus musculus with 27 samples.

Results

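Livers of mice fed an atherogenic rodent diet were compared with livers of mice fed the AIN-93M purified diet, over every gene detected on either diet. A gene counted as detected when the mean of a probe exceeded log2(100), a value of 6.64 on the log2 scale, in the atherogenic or in the control arrays, and this detection level was passed by 6166 of the 6478 genes detected on at least 1 of the 9 diets studied. Of these, 5723 were detected on both diets, 287 through the atherogenic arrays only and 156 through the control arrays only. All mice were male C57BL/6, an inbred strain, bought at 10 weeks of age and kept on their diet for 3 weeks. The atherogenic diet was rich in saturated fat, sucrose and cholesterol and held cholic acid, a primary bile acid, and none of these ingredients can be told apart from the others in the comparison with the purified control diet. The Western diet, used as a further reference, had the same level of fat, less cholesterol and no cholic acid, so that cholesterol and cholic acid cannot be told apart in that comparison. Each diet had 3 arrays of liver RNA from 3 mice, the mice were not fasted, and they were killed in the morning.

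Values are log2 intensities. A gene's difference was tested in limma over all 27 arrays and is also given as a percent of control, so that 100% is no change, with its 95% confidence interval (CI). A gene was called higher or lower at an adjusted p under 0.05. P-values against control were adjusted over the 8 diets together and those against the Western diet within that comparison alone. Counts of calls in the 2 comparisons are therefore not at the same threshold. Where each probe of the gene stayed under the detection level on all 3 arrays of a group, only a minimum fold can be given. It is measured from that level, and the p printed with it tests the fitted difference and not that minimum. Where a group mean lay under that level but not every probe on every array did, the percent is as fitted. The size of such a difference is uncertain. Atherogenic replicate 2 stood apart from its group, at a distance over kept probes of 48.4 and 48.7 from the other atherogenic arrays, which lay 37.6 from each other, while the control arrays lay 39.4 to 50.6 from each other. Hepatocyte markers bore out the tissue label, since 12 of the 12 on the array were detected, with array means of 13.65, 13.84 and 13.68 on the atherogenic diet and 13.64, 13.52 and 13.65 on the control diet, and 0 of them were called in limma, with 5 at an unadjusted p under 0.05. In bulk tissue, fewer cells of a type and less RNA per cell cannot be told apart.

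Cholesterol in the liver comes from the diet, from lipoproteins taken up from blood and from synthesis out of acetyl-CoA. When sterol in the endoplasmic reticulum is plentiful, Scap and the Insig proteins hold back the transcription factor SREBP-2, which drives the synthesis genes, while oxysterols activate the receptor LXR, which drives sterol export. Cholesterol leaves the liver in bile, as such or as bile acids, and bile acids activate the receptor FXR, which lowers their synthesis and uptake and raises their export.

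Some genes of sterol and bile acid handling, glutathione S-transferases and macrophage transcripts were among the largest differences on the atherogenic diet. Of the 6166 genes, 577 were called higher (9.36%) and 370 lower (6.00%), and 146 of the called genes were at least 2-fold higher and 93 at least 2-fold lower. Among the increases was Cyp26a1, which breaks down retinoic acid, with 9.83, 9.75 and 11.01 on the atherogenic arrays and 4.36, 7.42 and 5.59 on the control arrays. Its atherogenic arrays were all higher than its control arrays, and as fitted it reached 2116% of control (adjusted p = 0.00027, CI from 756 to 5924), a size that is uncertain because the control mean lay below the detection level. Hsd17b6, a dehydrogenase of retinol and steroids, was 1083% of control (adjusted p = 0.00058), and Tmem141, a membrane protein, was 549% of control (adjusted p = 1.6e-10). On the other side stood Fabp5, a fatty acid binding protein, with 8.37, 7.47 and 7.55 on the atherogenic and 11.82, 12.43 and 13.40 on the control arrays, or 3.70% of control (adjusted p = 4.6e-06, CI from 1.68 to 8.17). Rdh11, a retinol dehydrogenase, was 16.4% of control (adjusted p = 4.1e-06), and the uncharacterized transcript 1810008I18Rik was 13.4% (adjusted p = 5.3e-05). In neither of these genes did the groups overlap.

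The balance of higher and lower calls depended on the scaling of the arrays. As deposited, 60.9% of called genes were higher, against 49.9% (482 higher and 483 lower) with arrays centred on their medians and 50.6% (508 and 496) after quantile normalization again. Over all detected genes the median difference was 0.03 as deposited and -0.01 with either rescaling. All 3 atherogenic arrays lay above all 3 control arrays in 1307 genes (21.2%) and below them in 966 (15.7%). Only 26 of the 947 called genes had overlapping arrays, so a lack of overlap adds little to a call. Of the 287 genes detected through the atherogenic arrays only, 115 were called higher, and of the 156 detected through the control arrays only, 36 were called lower, and these genes could enter only by being high in that group. Without atherogenic replicate 2, 474 genes were called higher and 290 lower, of which 409 and 247 were among the calls made with it.

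**Figure D1:**
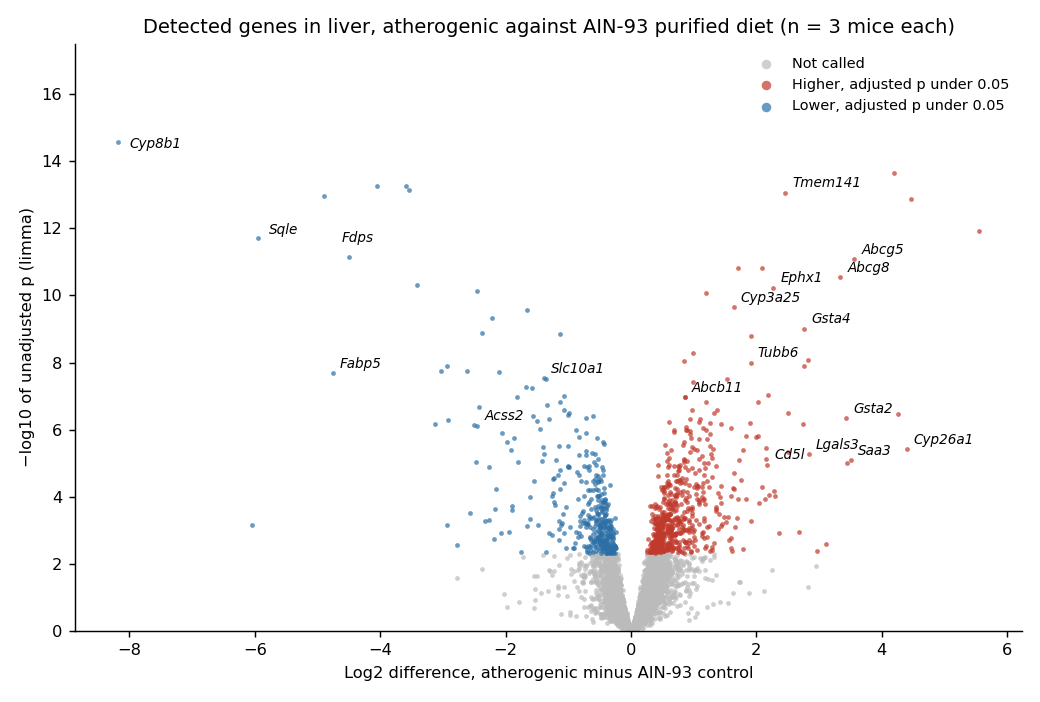
Log2 difference of each of the 6166 detected genes, atherogenic minus control (x axis), against -log10 of the unadjusted limma p (y axis). Red points were called higher and blue points lower at an adjusted p under 0.05, differences are as fitted even for groups that were not detected, and Cyp8b1 lies furthest to the left.

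Transcripts of cholesterol synthesis were lower almost throughout the pathway. Of 17 detected genes, 16 were called lower and 0 higher, against 6.00% lower over all genes, and in all 17 the 3 atherogenic arrays lay below the 3 control arrays, as in 15.7% of all genes. The median log2 difference of the list was -2.43. Hmgcs1, the synthase that forms HMG-CoA, read 9.05, 9.02 and 9.52 on the atherogenic arrays and 10.67, 10.90 and 11.61 on the control arrays, or 27.5% of control (adjusted p = 0.00015, CI from 18.2 to 41.5). The groups were far apart, although the control arrays differed among themselves. Pmvk, the phosphomevalonate kinase, was 19.2% of control (adjusted p = 4.9e-07), and Idi1, which isomerizes isopentenyl diphosphate, was 6.04% (adjusted p = 1.2e-10). Fdps, which joins the isoprenoid units to farnesyl diphosphate, read 6.78, 7.11 and 7.02 against 10.78, 11.55 and 12.08 on the control arrays, or 4.42% of control (adjusted p = 7.3e-09, CI from 2.73 to 7.15).

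The steps from squalene to cholesterol followed the same course. Fdft1, the squalene synthase, was 21.5% of control (adjusted p = 2.1e-07). Sqle, the epoxidase that opens the sterol branch, read 3.18, 2.72 and 2.29 on the atherogenic arrays, near the lowest value of the arrays, and 8.06, 8.60 and 9.37 on the control arrays, and was at least 4.09-fold lower (adjusted p = 2.4e-09). Lss, the lanosterol synthase, whose probes were also undetected on the atherogenic arrays, fell by a factor of at least 2.86 (adjusted p = 2.7e-05). Cyp51, the lanosterol demethylase, was 8.33% of control as fitted (adjusted p = 1.2e-10), with an atherogenic mean of 6.24, below the detection level. Msmo1 and Nsdhl, which remove methyl groups from the sterol ring, were 8.62% of control (adjusted p = 1.4e-10) and at least 7.44-fold lower (adjusted p = 3.2e-08). Hsd17b7, which acts with them, was 36.6% of control as fitted (adjusted p = 8.9e-05), with an atherogenic mean of 5.71, also below the detection level. Of the sterol reductases, Tm7sf2 was 18.1% of control (adjusted p = 4.6e-08), Dhcr7, which makes cholesterol in the last step, was 12.2% (adjusted p = 4.1e-06), and Lbr, which also holds lamin in the nuclear envelope, was 67.8% and not called (adjusted p = 0.052, and 0.0020 to 0.26 over the alternatives).

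Smaller differences were found for Ebp, the sterol isomerase (62.9% of control, adjusted p = 0.0042), for Sc5d, the sterol desaturase (34.0%, adjusted p = 4.3e-05), and for Erg28, a scaffold of these enzymes (50.7%, adjusted p = 0.00071). Mvk and Mvd, the kinase and decarboxylase on either side of Pmvk, stayed below the detection level by diet mean and were not members. Mvd read 2.84, 3.42 and 3.22 on the atherogenic arrays and 6.02, 6.09 and 7.20 on the control arrays. Leaving out any array of either diet kept 16 or 17 of the 17 genes lower. Against the Western diet, 3 of the 17 were called lower, against 6.54% of all genes, Fdps at 46.8% of Western (adjusted p = 0.026), Tm7sf2 at 48.4% (adjusted p = 0.0013) and Sc5d at 64.5% (adjusted p = 0.046), and Sqle, also low on the Western arrays (2.67, 2.49 and 2.29), was not.

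**Figure D2:**
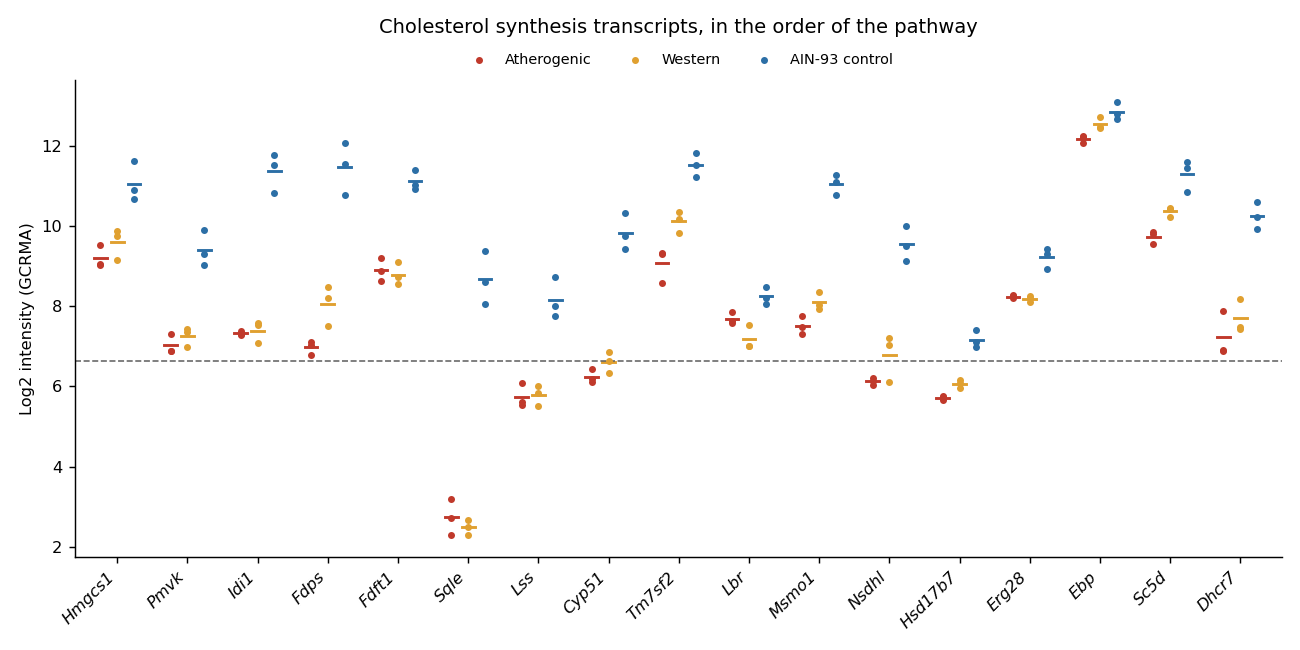
Log2 intensity (y axis) of the 17 detected cholesterol synthesis genes in the order of the pathway (x axis) on the atherogenic, Western and control diets. Points are single arrays, bars are means of 3 arrays and a dashed line marks 6.64, where detection begins; every red atherogenic point lies below every blue control point of its gene.

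The promoter of Hmgcs1 is shown because it alone of the pathway held the sterol element searched for. From RefSeq promoters on GRCm38.p6, 250 bases before to 50 after each gene start, 14 of the 17 genes were matched, and TCACNCCAC, searched on both strands, lay in 1 of them, compared with 408 of all 32851 promoters (1.24%). In capitals is the match on the strand of the gene, at chr13:119690101-119690400 (+).
Hmgcs1: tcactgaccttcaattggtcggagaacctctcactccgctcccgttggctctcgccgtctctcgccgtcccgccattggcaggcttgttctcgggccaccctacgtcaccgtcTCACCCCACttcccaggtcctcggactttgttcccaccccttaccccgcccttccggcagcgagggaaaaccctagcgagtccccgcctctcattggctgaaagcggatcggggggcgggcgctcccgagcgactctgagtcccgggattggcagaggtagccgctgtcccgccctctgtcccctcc
Such a match is a description of these letters, and their absence from the other windows says nothing of the factor.

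Genes that sense, take in and export sterol moved in both directions. Scap, which escorts SREBP proteins, read 9.54, 9.58 and 9.41 on the atherogenic arrays and 10.47, 10.43 and 10.66 on the control arrays, or 49.7% of control (adjusted p = 4.1e-05). Stard4, a carrier of cholesterol between membranes, was 33.5% of control (adjusted p = 9.9e-06). Insig1, which retains Scap, was 46.7% of control (adjusted p = 0.012) with overlapping arrays, and the call ended without atherogenic replicate 1, control replicate 1 or control replicate 3 (adjusted p = 0.076, 0.074 and 0.066, and 8.7e-05 to 0.14 over all alternatives). Insig2 was 129% of control and not called (adjusted p = 0.35). Scarb1, the receptor that takes cholesterol from HDL, went the other way, with 11.89, 11.98 and 12.13 on the atherogenic arrays and 10.83, 10.61 and 10.46 on the control arrays, or 258% of control (adjusted p = 3.3e-05, CI from 198 to 337). Of the 13 detected genes of SREBP-2 control and sterol uptake, 1 was called higher and 3 lower, against 9.36% and 6.00% over all genes. Single arrays left out gave 1 or 2 higher and 2 or 3 lower. Npc1 (113% of control, adjusted p = 0.70) and Npc2 (110%, adjusted p = 0.63), which carry cholesterol out of lysosomes, were not called.

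Sterol export genes were among the largest increases. Abcg5 and Abcg8, which together form the pump that moves sterol into bile, read 12.24, 12.73 and 12.63 and 10.65, 10.89 and 11.08 on the atherogenic arrays, against 9.16, 8.81 and 8.93 and 7.42, 7.77 and 7.43 on the control arrays. All atherogenic arrays lay above all control arrays, and Abcg5 was 1183% (adjusted p = 8.0e-09, CI from 805 to 1737) and Abcg8 1012% of control (adjusted p = 2.1e-08). Relative to Western livers, Abcg5 was 266% (adjusted p = 0.00090) and Abcg8 285% (adjusted p = 0.00048). Abcg1, which loads cholesterol onto HDL, was at least 3.20-fold higher than control, since all control arrays lay below detection (adjusted p = 1.3e-08), and Abca1, which lipidates apolipoprotein A-I, was 152% (adjusted p = 0.00044), a call that was lost with no filter on low signal.

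Lpl, the lipoprotein lipase, read 10.58, 8.73 and 10.46 on the atherogenic and 7.47, 7.12 and 7.67 on the control arrays, or 568% of control (adjusted p = 0.00031). These 5 genes were the called increases among 15 detected LXR targets and efflux genes, against 9.36% over all genes, and 1 gene was lower. Other targets of LXR were not called, such as Srebf1, which encodes SREBP-1 (191% of control, adjusted p = 0.075), Scd1, the stearoyl-CoA desaturase (107%, adjusted p = 0.88), and Mylip, a ligase that degrades lipoprotein receptors (115%, adjusted p = 0.75). Nr1h3, which encodes LXR alpha, was 101% of control (adjusted p = 0.96).

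Enzymes of bile acid synthesis were lower where the pathway begins and where it branches. Cyp8b1, the hydroxylase that commits a bile acid to cholic acid, read 4.40, 2.51 and 4.54 on the atherogenic arrays and 12.05, 12.11 and 11.82 on the control arrays. It was at least 40.9-fold lower (adjusted p = 1.2e-11), the largest bound of any gene, and at least 34.2-fold lower than on the Western diet (adjusted p = 3.3e-11). Cyp7a1, the rate-limiting enzyme, read 5.93, 6.08 and 3.61 on the atherogenic and 8.20, 9.21 and 6.54 on the control arrays, at least 2.53-fold lower (adjusted p = 0.035). The call for Cyp7a1 ended without atherogenic replicate 3, control replicate 1 or control replicate 2 (adjusted p = 0.16, 0.088 and 0.17, and 0.015 to 0.22 over all alternatives).

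In the alternative route, Cyp7b1, the oxysterol hydroxylase, was 51.1% of control (adjusted p = 0.015), a call that ended without atherogenic replicate 2 (adjusted p = 0.077, and 0.0092 to 0.10 over all alternatives). Cyp27a1, the sterol hydroxylase of mitochondria, was 74.9% of control and not called (adjusted p = 0.069), though it was lower than on the Western diet (67.4%, adjusted p = 0.0079). Baat and Slc27a5, which conjugate and activate bile acids, were 99.7% and 107% of control and not called (adjusted p = 0.99 and 0.56). In all, 4 of 16 detected genes were called lower and 1 higher against control, where 6.00% and 9.36% of all genes were. The lower count ranged from 2 without atherogenic replicate 2 or control replicate 2 to 5 without atherogenic replicate 1. Against the Western diet, 7 were lower and 1 higher, where 6.54% of all genes were lower and 11.6% higher.

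Of the receptors and feedback genes, Mafg, a transcriptional repressor in the FXR pathway, read 8.09, 8.66 and 8.40 on the atherogenic arrays and 7.35, 6.97 and 7.24 on the control arrays, or 229% of control (adjusted p = 9.5e-05). Nr0b2, which encodes the repressor SHP, read 10.50, 10.62 and 11.26 on the atherogenic arrays and 9.85, 9.52 and 9.56 on the control arrays. Its atherogenic arrays lay above its control arrays, as in 21.2% of all genes. At 222% of control Nr0b2 was not called (adjusted p = 0.061, and 0.011 to 0.34 over the alternatives). Nr1h4, which encodes FXR, was 61.4% of control (adjusted p = 0.044), a call lost without atherogenic replicate 2 or control replicate 1 or 2 (adjusted p = 0.20, 0.080 and 0.22, and 0.023 to 0.24 over all alternatives). Fgfr4, the receptor through which intestinal FGF15 acts on the liver, was 113% of control and not called (adjusted p = 0.69).

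Some carriers that bring bile salts into the hepatocyte were lower, and 4 export pumps were higher. Of 14 detected bile salt and organic anion transporters, 4 were called higher and 3 lower, against 9.36% and 6.00% over all genes. Slc10a1, the sodium-dependent uptake carrier, read 11.93, 11.32 and 11.99 on the atherogenic arrays and 13.09, 13.29 and 13.04 on the control arrays, or 38.0% of control (adjusted p = 6.0e-06). Slco1a1, an organic anion carrier, was 34.2% (adjusted p = 0.0015), and Slco1b2, another, was 78.4% and not called (adjusted p = 0.38). Slco1a4, a further such carrier, leaned the other way, with a log2 difference of 0.57, and was not called (adjusted p = 0.60). Abcb11, the bile salt export pump, read 12.88, 12.73 and 12.85 against 11.87 to 12.01 on the control arrays, or 181% of control (adjusted p = 1.6e-05, CI from 155 to 212). Abcb4, which moves phosphatidylcholine into bile, was 215% (adjusted p = 5.2e-05), Abcc2, the canalicular pump for conjugates, was 195% (adjusted p = 0.00015), and Abcc3, which pumps conjugates back into blood, was 314% (adjusted p = 0.00099). All 4 pumps were higher on every atherogenic array than on any control array.

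Set against the Western diet, Abcb11 was 211% (adjusted p = 1.3e-06) and Slc10a1 50.9% (adjusted p = 0.00032), while Abcc2 (96.5%, adjusted p = 0.86), Abcc3 (91.8%, adjusted p = 0.83) and Abcb4 (125%, adjusted p = 0.16) were not called. Their intervals against control, 158 to 241 for Abcc2 and 203 to 487 for Abcc3, lay wholly above 100%. Among all 20 detected ABC transporters, 9 were higher and 1 lower, against 9.36% and 6.00% over all genes, and leaving out single arrays gave 8 or 9 higher. Abcb1a, which encodes a P-glycoprotein, stayed below the detection level, with 4.83, 4.72 and 3.81 on the atherogenic arrays and 2.51, 2.56 and 2.55 on the control arrays.

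**Figure D3:**
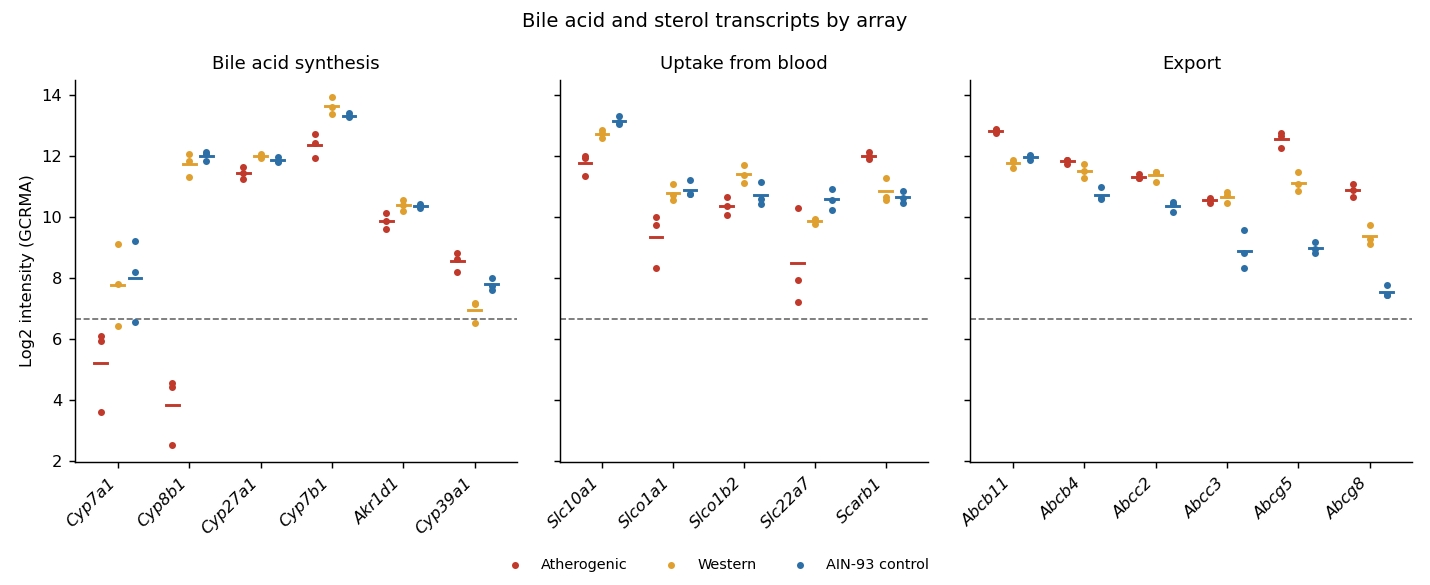
Log2 intensity (y axis) of genes of bile acid synthesis, uptake from blood and export (x axis) on the atherogenic, Western and control diets. Points are single arrays, bars are means of 3 arrays and a dashed line marks 6.64, where detection begins; Cyp8b1 lies below that line on the atherogenic arrays only, and Abcg5 and Abcg8 are highest there.

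Several genes that make fatty acids were lower, with wide spread between mice. Of 24 detected members, 8 were called lower and 2 higher, against 6.00% and 9.36% over all genes, and the median log2 difference was -0.76. Acss2, which makes acetyl-CoA from acetate, read 7.32, 7.45 and 7.57 on the atherogenic arrays and 9.60, 9.37 and 10.70 on the control arrays, or 18.4% of control (adjusted p = 7.4e-05). Acacb, the acetyl-CoA carboxylase of mitochondria, was 18.1% (adjusted p = 0.00055), and Me1, the malic enzyme that supplies NADPH, was 17.0% (adjusted p = 0.0074). Fads1, a desaturase of polyunsaturated fatty acids, was 44.9% (adjusted p = 0.00023), and Acsl5, which activates fatty acids, was 45.7% (adjusted p = 0.0023). The core synthase Fasn read 10.06, 12.32 and 10.68 on the atherogenic arrays and 11.74, 12.33 and 12.98 on the control arrays, and was not called (39.7% of control, adjusted p = 0.25, CI from 14.8 to 106). Atherogenic replicate 2 was the high one for Fasn, and the lower count was 7 without it, with a lowest count of 5 without atherogenic replicate 1 or control replicate 3. Mlxipl, which encodes the carbohydrate-sensing factor ChREBP, was 211% of control (adjusted p = 0.0047). In the comparison with Western livers 1 gene was lower and 2 higher, where 6.54% and 11.6% of all genes were.

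Other lipid genes moved apart from each other. Fabp2, a fatty acid binding protein best known from the intestine, read 12.78, 12.42 and 12.73 on the atherogenic arrays and 11.59, 11.66 and 11.42 on the control arrays, or 213% of control (adjusted p = 0.00046), in contrast to Fabp5 at 3.70%. Apoc2, the activator of lipoprotein lipase, was 203% (adjusted p = 0.00098), the only increase among 18 detected apolipoprotein and VLDL genes, of which 3 were lower, or 0 without control replicate 3, and over all genes 9.36% were higher and 6.00% lower. Cept1, which completes phosphatidylcholine and phosphatidylethanolamine, was 181% (adjusted p = 1.7e-05). Plin2, a coat protein of lipid droplets, read 12.51, 12.30 and 12.40 against 12.01, 12.97 and 12.71 on the control arrays and was not called (89.4%, adjusted p = 0.73), but it was 58.8% of the Western level (adjusted p = 0.028). Cd36, a fatty acid translocase, was 136% of control and not called (adjusted p = 0.68).

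Many genes of mitochondrial fatty acid oxidation were lower than on the Western diet, with few calls against the control diet. Of 22 detected, 2 were higher and 0 lower against control, close to the 9.36% higher over all genes, while 14 were lower and 0 higher against the Western diet, against 6.54% and 11.6%. The mitochondrial count against control ran from 1 to 3 when single arrays were left out. In the oxidation pathway of peroxisomes, 4 of 17 were lower than on the Western diet and 0 higher, and against control 1 was higher and 1 lower. Eci1, an isomerase for unsaturated chains, read 10.68, 10.46 and 10.87 on the atherogenic arrays, 11.35, 11.61 and 11.89 on the Western arrays and 10.93, 11.07 and 10.94 on the control arrays, and was 52.0% of Western (adjusted p = 6.1e-05). Etfdh, which passes electrons from oxidation to the respiratory chain, was 57.4% of Western (adjusted p = 0.0010), and Slc25a20, the carnitine carrier, was 61.0% (adjusted p = 0.0061). Targets of PPAR alpha, the receptor for fatty acids, gave 2 higher and 0 lower of 19 against control, a share near that of all genes, and 10 lower against the Western diet. The 2 increases were Ehhadh, the bifunctional enzyme of peroxisomes (241% of control, adjusted p = 0.00012), and Cyp4f15, a fatty acid hydroxylase (208%, adjusted p = 0.00028).

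Enzymes that conjugate glutathione included some of the largest increases. Gsta2 read 13.19, 12.41 and 12.62 on the atherogenic arrays and 9.62, 9.45 and 8.87 on the control arrays, or 1076% of control (adjusted p = 5.0e-05, CI from 538 to 2150). Gsta4, which acts on products of lipid peroxidation, read 11.34, 10.97 and 11.16 against 8.33, 8.47 and 8.38 on the control arrays, or 679% (adjusted p = 4.0e-07). Gstm3 was 668% (adjusted p = 6.7e-05) and Gstm1 289% (adjusted p = 6.1e-06). No atherogenic array of these 4 genes overlapped with a control array, and their probes may bind transcripts of related family members. Of 19 detected glutathione S-transferases, 5 were higher and 0 lower, against 9.36% and 6.00% over all genes, with a median log2 difference of 0.01. Compared with Western livers 5 were higher and 2 lower, against 11.6% and 6.54%, with Gstm3 at 1037% (adjusted p = 6.6e-06) and Gsta4 at 405% of Western (adjusted p = 2.7e-05).

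Genes of glutathione synthesis and targets of Nrf2, the factor that answers oxidants and electrophiles, gave 11 higher and 0 lower of 22, against 9.36% higher over all genes, and 8 to 10 higher when single arrays were left out. Their median log2 difference was 0.62, and 0.33 without atherogenic replicate 2. Gss, the glutathione synthetase, read 8.19, 8.35 and 7.95 on the atherogenic arrays and 7.01, 7.06 and 6.55 on the control arrays, or 244% (adjusted p = 0.0012). Gclc and Gclm, the subunits of the rate-limiting ligase, were 168% (adjusted p = 0.0095) and 154% (adjusted p = 0.0048), and the Gclc call ended without control replicate 2 (adjusted p = 0.070, and 7.7e-05 to 0.088 over all alternatives). Ephx1, the microsomal epoxide hydrolase, was 481% (adjusted p = 3.7e-08), and Cbr1, a carbonyl reductase, was 230% (adjusted p = 2.1e-05). Set against Western livers, Gclc was 97.1% (adjusted p = 0.90) and Gclm 110% (adjusted p = 0.55), and 5 of the 22 genes were higher, against 11.6% over all genes.

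Among P450 enzymes and other genes under CAR and PXR, receptors for foreign compounds, 7 of 23 were higher and 0 lower, against 9.36% and 6.00% over all genes. Cyp3a25 read 14.35, 14.57 and 14.53 on the atherogenic arrays and 12.82, 12.97 and 12.72 on the control arrays, or 312% of control (adjusted p = 1.1e-07, CI from 253 to 386). Cyp2c37 was 208% (adjusted p = 0.0021), Ces2a, a carboxylesterase, was 197% (adjusted p = 0.00025), and Nr1i2, which encodes PXR, a receptor that bile acids can activate, was 186% (adjusted p = 0.0043). Cyp2b10, the usual mark of CAR, lay at the lowest value, 2.29, on all arrays of both diets. When compared with Western livers, only Nr1i2 was called higher (165%, adjusted p = 0.012), and 5 of the 23 genes were lower, where 11.6% and 6.54% of all genes were.

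Macrophage transcripts were higher on the atherogenic diet. Of 19 detected genes of activated and recruited macrophages, 13 were called higher and 1, Fabp5, lower. Of 14 detected markers of Kupffer cells, the resident macrophages of the liver, 7 were higher and 0 lower. Over all genes 9.36% were higher. Through the atherogenic arrays only, 4 of the 19 and 1 of the 14 were detected, and these could enter only by being high there. Lgals3, or galectin-3, read 9.26, 7.85 and 7.58 on the atherogenic arrays and 5.44, 5.37 and 5.35 on the control arrays, and was at least 3.00-fold higher (adjusted p = 0.00035). Minimum increases were 3.51-fold for Clec7a, a receptor for fungal glucans (adjusted p = 0.0021), and 2.43-fold for Cyba, a subunit of the NADPH oxidase (adjusted p = 0.0022). Cd5l, a secreted product of tissue macrophages, read 12.87, 12.68 and 11.84 against 10.24, 10.19 and 10.46 on the control arrays, or 449% of control (adjusted p = 0.00062, CI from 260 to 776). Lyz1, a lysozyme whose probes may also bind Lyz2, was 486% (adjusted p = 0.0025), and Fcer1g and Laptm5, proteins of immune receptor complexes and of lysosomes in blood cells, were 271% (adjusted p = 0.0046) and 268% (adjusted p = 0.0034).

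Several defining Kupffer cell markers did not reach a call or held it in part of the fits. Clec4f, a lectin of Kupffer cells, was 221% of control (adjusted p = 0.020), but its call ended without atherogenic replicate 1 or 2 or control replicate 1 or 2 (adjusted p = 0.069, 0.056, 0.082 and 0.064, and 0.013 to 0.13 over all alternatives). Vsig4, a complement receptor, was 203% (adjusted p = 0.10), Adgre1, or F4/80, was 167% (adjusted p = 0.12), and Csf1r, the receptor for the growth factor of macrophages, was 189% (adjusted p = 0.10). In these uncalled genes all atherogenic arrays lay above all control arrays, as in 21.2% of all genes. Cd68 was below detection by diet mean and not a member, with 7.00, 6.19 and 5.93 on the atherogenic arrays and 3.79, 3.79 and 3.83 on the control arrays. The Kupffer count fell to 2 without atherogenic replicate 1, which had the highest mean of the list, and to 3 or 4 without a control array, and the activated count ran from 8, without that array, to 12. Array means of the Kupffer list were 9.84, 9.38 and 9.14 on the atherogenic diet, 7.73, 7.22 and 7.62 on the Western diet and 8.09, 8.31 and 8.58 on the control diet. Against the Western diet 13 of the 14 were higher, where 11.6% of all genes were. Among the 13 were Clec4f at 400% (adjusted p = 0.00012) and Cd5l at 667% (adjusted p = 4.5e-05).

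Genes of the lysosome, some of which are also macrophage genes, gave 17 higher and 0 lower of 34, against 9.36% higher over all genes, with a median of 0.40, and 9 to 17 when single arrays were left out, the lowest without control replicate 1 and 11 without atherogenic replicate 1. Ctsb, a cathepsin, read 9.20, 9.02 and 8.98 on the atherogenic arrays and 8.35, 8.30 and 8.49 on the control arrays, or 160% of control (adjusted p = 9.6e-05). Lamp1, a membrane protein of lysosomes in all cells, was 153% (adjusted p = 6.1e-05, CI from 135 to 174), Atp6v1b2, a subunit of the proton pump, was 181% (adjusted p = 0.00045), and Hexa, which degrades gangliosides, was 163% (adjusted p = 0.0033). Groups did not overlap in any of these 4 genes. A total of 21 of the 34 were higher and 0 lower than on the Western diet, against 11.6% higher over all genes.

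Transcripts of MHC class II, which present antigen on macrophages, dendritic cells and B cells, differed widely among the atherogenic livers. H2-Aa read 10.63, 8.14 and 9.02 on the atherogenic arrays and 7.58, 8.15 and 8.38 on the control arrays, and H2-Ab1 and Cd74, the invariant chain, had the same order. Replicate 1 was far above the controls and replicate 2 within or close to their range. H2-Aa was 234% of control and not called (adjusted p = 0.15), but without atherogenic replicate 2 it was 345% and called (adjusted p = 0.037, and 0.017 to 0.70 over all alternatives). Of the 6 detected genes of the list, 2 were higher with all arrays, against 9.36% over all genes. The count was 4 without atherogenic replicate 2 and 0 without atherogenic replicate 1, control replicate 2 or control replicate 3. Against the Western diet 6 were higher, where 11.6% of all genes were.

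Other cell types of the liver showed few calls. Of 13 detected genes of stellate cells and collagens, 0 were called in either direction, and 1 had an unadjusted p under 0.05 in limma. Calls were 0 in the fit of the 6 arrays alone and 2 higher with array weights or without atherogenic replicate 2. Of 15 markers of sinusoidal endothelium 1 was lower, near the 6.00% over all genes. That gene was Clec4g, at 61.4% of control (adjusted p = 0.048), a call lost without atherogenic replicate 1 or 2 or control replicate 2 or 3 (adjusted p = 0.072, 0.22, 0.11 and 0.20, and 0.0048 to 0.26 over all alternatives). Without atherogenic replicate 3 the endothelial count was 6 lower. Atherogenic replicate 2 had the lowest mean of both lists, 7.35 against 8.87 and 8.77 in the other atherogenic arrays and 8.25 to 8.47 in the control arrays for stellate cells, and 6.85 against 7.73 to 8.02 for endothelium. Markers of neutrophils (12 on the array) and of T and NK cells (14) had 0 detected by diet mean. In atherogenic replicate 2 alone S100a8 and S100a9 of the neutrophil list read 10.16 and 8.73. The other atherogenic arrays had at most 3.14 and 2.92 and the control arrays at most 3.88 and 3.06. The other neutrophil markers stayed below detection on that array, from 2.29 for Mmp9 and 2.37 for Csf3r to 5.27 for Ngp and 5.81 for Prtn3. Which cells carried these transcripts, and what part they had in other results of that array, was not tested.

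**Figure D4:**
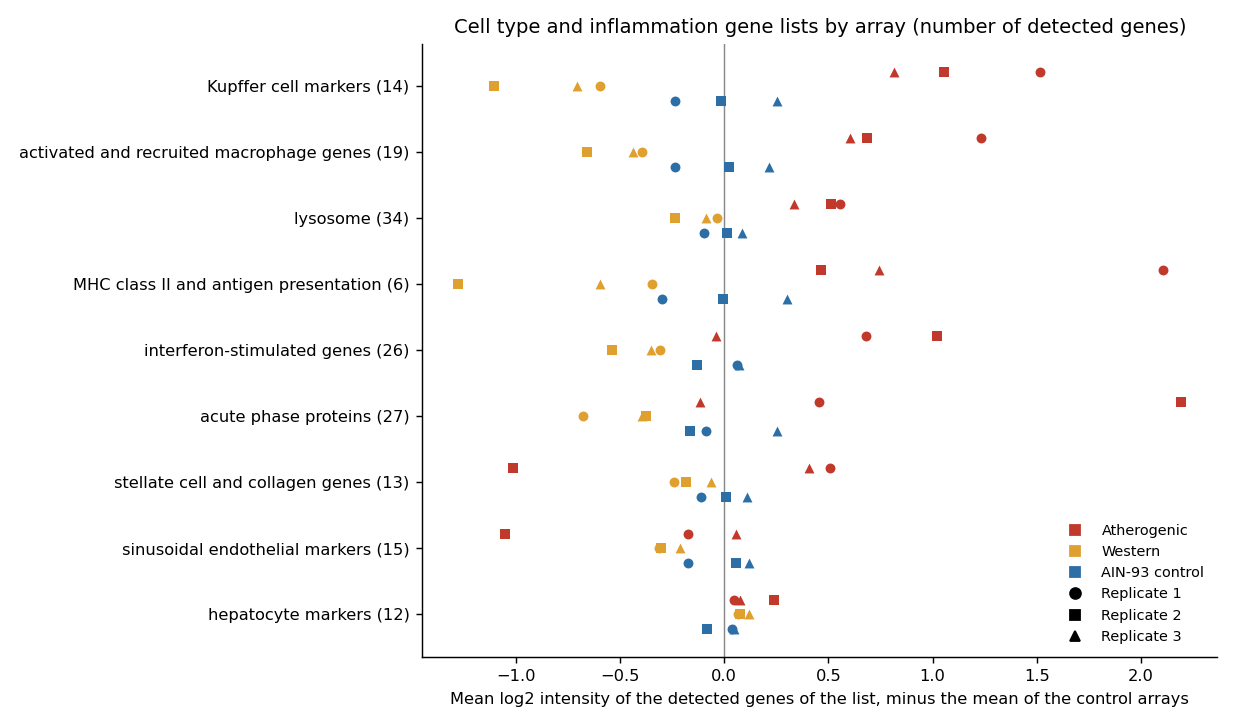
Mean log2 intensity of the detected genes of each list on each array, minus the mean of the control arrays (x axis), for lists of cell type and inflammation genes (y axis, number of genes in brackets). Red is atherogenic, yellow Western and blue control, and the marker shape gives the replicate; atherogenic replicate 2, a square, lies highest for acute phase proteins and lowest for stellate cell and endothelial genes.

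Acute phase proteins, which hepatocytes secrete during inflammation, rested on a single mouse. With all arrays 6 of 27 were higher and 0 lower, against 9.36% and 6.00% over all genes. Without atherogenic replicate 2 it was 1 higher and 3 lower, and without a control array 2 or 3 higher. The array means of the list were 11.85, 13.59 and 11.28 on the atherogenic diet and 11.31, 11.23 and 11.65 on the control diet. Orm2, an orosomucoid, read 9.33, 14.36 and 8.75 on the atherogenic arrays and 8.02, 7.25 and 8.27 on the control arrays, or 781% of control (adjusted p = 0.046). Without replicate 2 it was 229% and not called (adjusted p = 0.23, and 0.0084 to 0.28 over all alternatives), nor was it called without any single control array. Lcn2, an iron-binding protein of inflammation, read 9.75, 14.41 and 8.23 against 7.88, 6.91 and 9.11 on the control arrays and was not called (adjusted p = 0.21). Saa1, the main serum amyloid A, read 13.51, 15.47 and 12.27 against 13.51, 11.13 and 13.89 on the control arrays, overlapping widely (adjusted p = 0.56).

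Saa3 was the exception, a serum amyloid made by macrophages and hepatocytes, with 10.69, 12.85 and 9.55 on the atherogenic arrays and 7.68, 7.25 and 7.64 on the control arrays. All 3 atherogenic arrays were above all control arrays, at 1138% of control (adjusted p = 0.00049, CI from 479 to 2702), and without replicate 2 it was 605% (adjusted p = 0.0024, and 4.3e-05 to 0.045 over all alternatives). Over the Western diet Saa3 was 1517% (adjusted p = 0.00012), and 10 of the 27 genes of the list were higher, where 11.6% of all genes were. That count uses the same 3 atherogenic arrays, and it was not repeated without replicate 2.

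**Figure D5:**
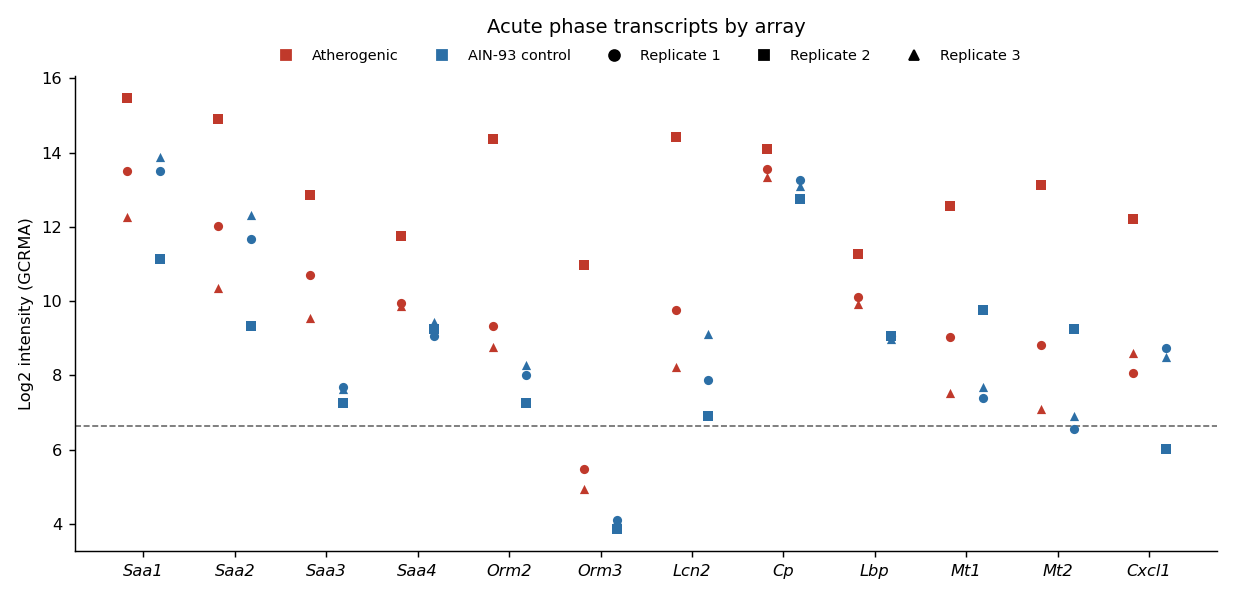
Log2 intensity (y axis) of acute phase and related transcripts (x axis) on the single atherogenic and control arrays. Red is atherogenic, blue is control, the marker shape gives the replicate and a dashed line marks 6.64, where detection begins; the square of atherogenic replicate 2 is the highest point of every gene.

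Adhesion molecules and chemokines gave 4 higher and 0 lower of 14 detected genes out of 44 on the array, against 9.36% higher over all genes. Of the 14, 4 were detected through the atherogenic arrays only and could enter only by being high there. Cd44, a receptor for hyaluronan, read 7.86, 7.46 and 6.69 on the atherogenic arrays and 5.09, 4.98 and 5.52 on the control arrays, at least 1.62-fold higher (adjusted p = 0.00046), and Ccl6, a chemokine of macrophages, was 441% of control (adjusted p = 0.0039). Icam1, an adhesion molecule for leukocytes, read 6.80, 7.19 and 6.45 against 4.59, 5.02 and 5.85, an increase of at least 1.13-fold (adjusted p = 0.015) whose call ended without atherogenic replicate 2 or control replicate 1 or 2 (adjusted p = 0.057, 0.076 and 0.053, and 0.0096 to 0.11 over all alternatives). Tnf and Ccl2 lay near the lowest value on every array of both diets, at most 2.33. In toll-like receptor signaling, 3 of 13 were higher, or 1 without atherogenic replicate 2, and 2 of the 13 were detected through the atherogenic arrays only. Among the 3 was Nfkbia, the inhibitor of NF-kappa B that the factor itself induces, with 10.23, 10.86 and 10.23 against 9.75, 9.27 and 9.17. Nfkbia was 206% of control (adjusted p = 0.0019).

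Of 38 detected genes of complement and coagulation, 5 were higher and 2 lower, shares near the 9.36% and 6.00% over all genes. Cfb, factor B of the alternative pathway, read 12.55, 12.81 and 12.53 on the atherogenic arrays and 11.82, 11.82 and 11.91 on the control arrays, or 172% of control (adjusted p = 0.0014, CI from 139 to 213), and Mbl2, a lectin that starts the lectin pathway, was 146% (adjusted p = 0.0089). F11, coagulation factor XI, was 43.6% (adjusted p = 0.00049), and Masp2, a protease of the lectin pathway, was 68.7% (adjusted p = 0.00015). Higher calls fell to 2 without control replicate 1 and 3 without atherogenic replicate 1. Against the Western diet 15 of the 38 were higher and 3 lower (11.6% and 6.54% over all genes), with Cfb at 183% (adjusted p = 0.00035).

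Interferon-stimulated genes varied between single atherogenic livers. With all arrays 5 of 26 were higher, where 9.36% of all genes were, with 12 without atherogenic replicate 3 and 1 higher and 1 lower without atherogenic replicate 2, 3 without atherogenic replicate 1, control replicate 2 or control replicate 3, and their array means were 8.97, 9.31 and 8.25 on the atherogenic diet and 8.35, 8.16 and 8.36 on the control diet. Bst2, or tetherin, which holds virus particles at the cell surface, read 12.89, 12.84 and 12.34 on the atherogenic arrays and 11.37, 11.27 and 11.59 on the control arrays, or 242% of control (adjusted p = 0.00034, CI from 179 to 328). Oas1a, an oligoadenylate synthetase, read 7.69, 8.31 and 6.94 against 6.50, 6.36 and 6.57, at least 2.01-fold higher (adjusted p = 0.0096), and lost its call without atherogenic replicate 2 (adjusted p = 0.060, and 0.00084 to 0.078 over all alternatives). Of 15 detected genes of MHC class I and the immunoproteasome, 2 were higher with all arrays, 5 without atherogenic replicate 3 and 0 without atherogenic replicate 1 or 2.

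Among the genes of these lists called higher, the promoters of Bst2, Oas1a and Gbp2 held the interferon element, read as GAAA, any 2 bases and GAAA again, on either strand. The element lay in 16 of the 35 interferon and MHC class I genes found in the RefSeq table (GRCm38.p6, the same windows of 300 bases). Of all 32851 promoters, 1131 held it (3.44%). Gbp2 had 1 match, on the opposite strand, and Bst2 and Oas1a are shown. Capitals mark 2 overlapping matches in each, both on the strand of the gene, for Bst2 at chr8:71537423-71537722 (-) and for Oas1a at chr5:120907476-120907775 (-).
Bst2: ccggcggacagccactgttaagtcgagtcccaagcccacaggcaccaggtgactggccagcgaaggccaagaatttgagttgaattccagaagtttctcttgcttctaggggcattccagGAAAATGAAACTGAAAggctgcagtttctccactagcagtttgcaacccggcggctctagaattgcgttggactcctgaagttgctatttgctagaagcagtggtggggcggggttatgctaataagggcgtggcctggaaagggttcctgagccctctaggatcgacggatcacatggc
Oas1a: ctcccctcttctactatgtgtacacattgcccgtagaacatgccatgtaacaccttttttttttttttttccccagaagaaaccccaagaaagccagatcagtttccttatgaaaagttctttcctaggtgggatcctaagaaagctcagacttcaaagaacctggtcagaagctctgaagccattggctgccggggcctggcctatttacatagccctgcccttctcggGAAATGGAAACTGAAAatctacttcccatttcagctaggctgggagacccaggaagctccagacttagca
Whether the element is used in these livers was not measured.

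Few cell cycle genes were detected, 13 of 54 on the array, and 6 of them were higher, against 9.36% over all genes. Of the 13, 3 were detected through the atherogenic arrays only and could enter only by being high there, and 1 through the control arrays only. Ccnd1, or cyclin D1, read 8.63, 8.86 and 7.98 on the atherogenic arrays and 6.13, 6.63 and 6.62 on the control arrays, or 407% of control (adjusted p = 0.00013, CI from 261 to 635). Stmn1, or stathmin, which takes microtubules apart, was 443% of control (adjusted p = 0.00025, CI from 269 to 730). Cdc20, which activates the anaphase complex, read 7.52, 5.66 and 7.09 against 4.05, 4.11 and 3.85 and was at least 1.08-fold higher (adjusted p = 3.2e-06). Mki67, the usual mark of dividing cells, stayed below detection but lay at 5.33, 5.28 and 5.12 on the atherogenic arrays and at most 2.38 on the control arrays.

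Genes of the cytoskeleton and annexins gave 10 higher and 0 lower of 29, against 9.36% higher over all genes. The count was 5 higher without atherogenic replicate 1 or 6 without control replicate 1 or 2. Of the 29, 2 were detected through the atherogenic arrays only and could enter only by being high there. Tubb6, a tubulin, read 7.12, 6.80 and 7.02 on the atherogenic arrays and 4.83, 5.15 and 5.22 on the control arrays, at least 1.26-fold higher (adjusted p = 2.6e-06). Krt8, a keratin of hepatocytes and bile duct cells, read 12.42, 13.01 and 11.98 against 10.88, 11.04 and 11.16, or 271% of control (adjusted p = 6.7e-05), and its partner Krt18 was 189% (adjusted p = 0.018), a call that ended without atherogenic replicate 2 or control replicate 2 (adjusted p = 0.11 and 0.070, and 0.0040 to 0.12 over all alternatives). The bile duct keratins Krt7 and Krt19 were below detection, at most 2.88 on any of the 6 arrays. Krt23, a keratin of the same bile duct list, was also below detection by diet mean. It read 5.99, 2.91 and 6.63 on the atherogenic arrays and 2.90, 3.15 and 2.92 on the control arrays. Prom1 and Cd24a of that list, also undetected, were higher on every atherogenic array, while Epcam and Sox9 overlapped. The 2 detected bile duct markers were not called, with a median log2 difference of -1.48.

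Genes that male livers express more than female livers were often lower. Of 20 detected members, 9 were called lower and 1 higher, against 6.00% and 9.36% over all genes. The median log2 difference was -0.53, with -0.29 without atherogenic replicate 2 and -0.89 without atherogenic replicate 1. Without atherogenic replicate 2, whose mean of 10.50 was below the 11.43 and 11.16 of the other atherogenic arrays and the 11.64 to 11.83 of the control arrays, 7 were lower. Cela1, an elastase, read 8.43, 7.65 and 8.44 on the atherogenic arrays and 10.69, 9.88 and 10.26 on the control arrays, or 23.3% of control (adjusted p = 4.4e-06, CI from 16.5 to 33.0). Serpina12, the adipokine vaspin, was 20.7% (adjusted p = 0.00070), Hsd3b5, a steroid dehydrogenase, was 28.7% (adjusted p = 0.00053), and Susd4, a regulator of complement, was at least 2.34-fold lower (adjusted p = 0.00012). Mup10, a major urinary protein whose probe may bind its many paralogs, read 8.37, 7.64 and 8.05 against 10.72, 10.40 and 10.44, or 17.7% of control (adjusted p = 7.1e-05). Igfbp2, a binding protein for insulin-like growth factors, was the increase, at 221% (adjusted p = 0.0027). Only 2 of 19 female-biased genes were detected and 0 were called by limma (1 at an unadjusted p under 0.05, 0 by Dunnett's test, and 1 with array weights or without control replicate 2). Undetected members of that list went both ways. Cyp17a1, a steroid hydroxylase, lay at 2.46, 3.97 and 3.11 on the atherogenic arrays and 6.51, 6.60 and 6.32 on the control arrays. Prom1 read 5.12, 6.47 and 5.02 against 3.36, 2.90 and 3.08 on the control arrays, and Cyp3a44 3.17, 3.02 and 3.83 against 2.63, 2.61 and 2.61. Others, such as Cyp2b13 and Cyp3a16, lay at 2.29 on all arrays of both diets.

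Some subunits of the respiratory chain and of cytosolic ribosomes were slightly lower, and most were not called. Of 70 detected oxidative phosphorylation genes, 24 were lower and 0 higher, against 6.00% lower over all genes, with a median log2 difference of -0.23, and the called members lay between 68.3% and 84.0% of control. Ndufb10, of complex I, read 11.92, 11.79 and 12.11 on the atherogenic arrays and 12.46, 12.50 and 12.51 on the control arrays (68.3%, adjusted p = 0.0011), and Uqcr10, of complex III, was 71.5% (adjusted p = 0.0045). Of 38 ribosomal protein genes 12 were lower and 0 higher, with a median of -0.23, such as Rps19 with 12.53, 12.44 and 12.57 against 12.92, 12.97 and 12.98 (73.5%, adjusted p = 0.0060). Both counts moved with the data used. The oxidative phosphorylation count was 11 without control replicate 3, 13 without atherogenic replicate 2 and 15 or 16 without either of the other control arrays, and the ribosomal count 4 without atherogenic replicate 1 or control replicate 1 and 5 or 6 without atherogenic replicate 2, control replicate 2 or control replicate 3. Against the Western diet 22 of the 70 were lower, while of the ribosomal genes 0 were lower and 3 higher. Over all genes 6.54% were lower and 11.6% higher in that comparison.

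The direct comparison of the atherogenic with the Western diet, fitted in the same limma model, called 718 genes higher (11.6%) and 403 lower (6.54%). Its p-values were adjusted within this comparison alone. Adjusted in that way, the comparison with control called 702 genes higher and 463 lower. Against Western, the higher share of 64.0% was 46.1% (537 and 629) with centred arrays and level (544 higher and 545 lower) after quantile normalization again. The control arrays do not enter this difference, but both comparisons share the atherogenic arrays. The called members were higher for 13 of 14 Kupffer cell markers, 21 of 34 lysosomal genes and 14 of 26 interferon-stimulated genes, and lower for 14 of 22 genes of mitochondrial fatty acid oxidation. Counts of list members against Western were not repeated with single arrays left out. Ccl6 was 892% of the Western level (adjusted p = 6.7e-05), and the increase of Lgals3 was no less than 3.00-fold (adjusted p = 1.3e-05). Mup10 was 10.3% of Western (adjusted p = 3.5e-06). Of 17 cholesterol synthesis genes 14 were not called in this comparison, and Idi1, at 95.3% of Western (adjusted p = 0.88), stood at 7.37, 7.28 and 7.31 on the atherogenic, 7.52, 7.57 and 7.07 on the Western and 10.82, 11.53 and 11.76 on the control arrays.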

How the data were processed

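Per the labels and the study's methods, total liver RNA of 3 mice per diet was hybridised to Affymetrix mouse genome arrays. The authors normalized the deposited log2 intensities with GCRMA, and the submitters' processing notes also name limma. Their depth has no counterpart in reads, so the number of arrays limits the precision. Of 45101 probes, 34958 carried 1 gene symbol, 932 several and 9211 none, and 18194 symbols were on the array. A probe was kept where a diet mean exceeded log2(100) on any of the 9 diets, and a gene's value was the mean of its kept probes.

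One linear model over all 27 arrays was fitted in limma 3.58.1 (R 4.3.3) with 1 mean per diet and a moderated variance, and p-values of the 8 diets against control were adjusted together by the Benjamini-Hochberg method over all genes (global adjustment). The comparison with the Western diet was a further contrast of that model, adjusted over its own genes. Intervals are 95% intervals of the fit, turned into percent of the other diet. P-values measure the spread between these arrays, and nothing says more of housing or hybridisation batches. Named genes were taken from those with the 15 largest changes in each direction past the threshold and with the same direction on every array. Of these, Ildr2 (708% of control, limma adjusted p = 2.2e-06) and Acnat2 (518%, adjusted p = 0.019) are not described. Up to 8 members per gene list were named as well, with others added where a sentence turns on them. The members and the 54 lists were chosen with earlier results of these data known, and lists share genes.

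Alternatives were other filters, scalings, variance models, adjustments, probe summaries, the methods' Dunnett's test, a replicate block and each array left out. The fit was tested on simulated data before use. Same-numbered atherogenic and control arrays did not deviate together, with correlations of 0.0416, -0.00754 and -0.165, so the numbers were not treated as pairs. Promoters were read from the RefSeq table. Tables were handled in Python 3.11.15 with numpy 2.4.6, pandas 2.3.3 and scipy 1.17.1, and drawn with matplotlib 3.10.9.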

Additional observations from a re-analysis of the deposited data

How the results depend on the processing

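Counts of called genes depended on the variance model and on single arrays, and the balance of higher and lower calls on the scaling. Against control, 947 genes were called, with 564 in the fit of the 6 atherogenic and control arrays alone, 1751 with array weights and 443 by the methods' Dunnett's test after Benjamini-Hochberg adjustment, and 615, without control replicate 3, to 810 when single arrays were left out. With no filter on low signal 929 of 18194 genes were called. Of 1487 called probes there were 830 in the fit of the 6 arrays, 2655 with array weights, and 991, without control replicate 2, to 1254 with arrays left out. The 1121 calls against the Western diet became 420 in the fit of the 6 atherogenic and Western arrays alone, and 729, without Western replicate 3, to 1187 with arrays left out. With the replicate number as a block the counts were 960 genes, 1500 probes and 1128 genes against Western, although the numbers did not pair the arrays. Of the 204 called genes among 257 named, 101 were called under every alternative. None of 4271 pairs of such a called gene and an alternative turned its direction, which was followed for these genes alone. Another adjustment, the fit of the 6 arrays or Dunnett's test left the difference itself unchanged, so that no turn was possible there. Of the pairs, 509 lost the call, among them 67 genes in the fit of the 6 arrays, 83 under Dunnett's test, 46 without atherogenic replicate 2 and 5 under the block. Of 1491 list counts under alternatives, 1148 lay within 1.5 times the count given. Beyond the number of arrays contributing to each fit, the cause of these changes was not tested, and with 3 arrays per diet a gene near the background has only a bound.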

Other observations

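Genes of methionine and one-carbon metabolism, not described above, gave 4 lower and 2 higher of 13 detected, against 6.00% and 9.36% over all genes. The counts were the same with any single array left out. Dmgdh, which demethylates dimethylglycine in mitochondria, read 11.26, 11.30 and 11.42 on the atherogenic arrays and 12.35, 12.44 and 12.57 on the control arrays, or 45.8% of control (limma adjusted p = 5.1e-07, CI from 39.0 to 53.8). Bhmt, which remethylates homocysteine with betaine, was 60.8% (adjusted p = 0.0016), and Gnmt, which methylates glycine, was 69.8% (adjusted p = 0.0024). Shmt1, the cytosolic enzyme that moves one-carbon units from serine, read 8.59, 8.75 and 8.90 against 9.66, 9.64 and 9.93 on the control arrays, or 50.2% (adjusted p = 3.8e-05). Slc6a6, the carrier for taurine, with which mouse bile acids are conjugated, read 9.29, 9.16 and 9.10 against 7.83, 6.74 and 7.84, or 329% (adjusted p = 0.00047). Fmo5, a monooxygenase, was 377% (adjusted p = 6.0e-07). All of these were also called against the Western diet, Dmgdh at 43.4% (adjusted p = 3.4e-07) and Slc6a6 at 228% (adjusted p = 0.0069). No groups overlapped in these 6 genes.

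Of 24 detected iron and heme genes, 4 were higher and 1 lower, against 9.36% and 6.00% over all genes, so that the 1 lower was near that share. Hamp2, a hepcidin whose probe may bind the related gene Hamp, read 10.42, 11.07 and 12.04 on the atherogenic arrays and 12.95, 12.71 and 12.71 on the control arrays, or 32.7% of control (adjusted p = 0.010), and lost the call without atherogenic replicate 1 (adjusted p = 0.063, and 0.0017 to 0.082 over all alternatives). Blvrb, a biliverdin reductase, was 178% (adjusted p = 0.00022), and Slc25a37, the iron carrier of mitochondria, was 165% (adjusted p = 0.0065). Of 23 cytosolic chaperones, 5 were higher and 0 lower, against 9.36% higher over all genes, or 2 without atherogenic replicate 2. The largest increase among them was Hspb1, a small heat shock protein, with 9.63, 9.56 and 9.86 against 7.54, 7.74 and 7.79, or 399% of control (adjusted p = 0.00014). Ighm, the immunoglobulin heavy chain of B cells, read 3.93, 3.42 and 4.10 on the atherogenic arrays and 4.96, 6.79 and 8.52 on the control arrays, at least 1.08-fold lower (adjusted p = 0.014), and lost the call without control replicate 3 (adjusted p = 0.10, and 0.00032 to 0.52 over all alternatives). Of 31 proteasome genes, 1 was lower and 0 higher, below the 6.00% and 9.36% over all genes.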
